A study of Mus musculus with 2 samples.

Results

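The genes described here are the growth factors, their receptors and the proteins that carry their signals: the fibroblast growth factor (FGF), insulin and insulin-like growth factor (IGF), platelet derived growth factor (PDGF), vascular endothelial growth factor (VEGF), hepatocyte growth factor, transforming growth factor beta (TGF-beta), activin, bone morphogenetic protein (BMP), Wnt and Notch families. They were chosen by the first words of the gene name printed on the array, a rule that uses no measured value but was written with earlier results of these data known, and make up 77 of 6113 gene names, on 82 of 8735 gene spots. Expression was measured on 2 two-color cDNA arrays of B6CBF1 mouse embryos at the morula stage, labeled as whole embryos of 4 d. Zygotes had been injected at the two-pronucleus stage with 1 pl of siRNA against leukemia inhibitory factor (LIF), the cytokine that signals through gp130 and STAT3, or with scrambled siRNA as the control, at 1.0 fmol by the sample labels (the study's methods name a different dose). On both arrays the RNA of LIF-siRNA-treated embryos carried Cy5 and the RNA of scrambled-siRNA-treated embryos carried Cy3, so a positive log2 ratio means more signal after LIF-siRNA, and a dye effect of a gene cannot be told apart from its response.

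RNA came from pooled morulae, and the sources used here do not say whether the arrays held separate pools, so every spread below is that between 2 arrays and may be technical. The free-text description of the samples speaks instead of untreated embryonic stem cells, and the titles, channel sources and study were followed here. No spot is named for LIF, which leaves the knockdown unchecked on the arrays. As a check of the tissue, 7 of 11 morula markers had a spot, and all 7 were well above background in all 4 channels, with summed signals of 51746 and 51675 after LIF-siRNA and 49380 and 59540 after scrambled siRNA on arrays 1 and 2. Zfp42 and Cdh1 among them were higher on both arrays, Pou5f1 and Eomes differed in sign, and 3 (Sox2, Krt8 and Gata6) were lower, with a ratio below 0.5 on both arrays. The 3 oocyte or maternal markers with a spot, Bmp15, Btg4 and Kit, were brighter after LIF-siRNA on both arrays, and their summed signal was 629 and 413 against 326 and 238. Btg4, an oocyte gene, had a ratio above 2 on both arrays. The 4 fibroblast spots summed to 3903 and 4073 against 1980 and 2341, nearly all of it Col3a1, while the control signal of Col1a2 was not well above background on either array. The single cumulus marker and the 2 blood spots had summed signals of at most 185 in any channel. The part of these shifts in the results below was not tested, and in pooled embryos fewer cells of a type and less RNA per cell cannot be told apart.

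The families differ in how the signal reaches the nucleus. TGF-beta, activin and BMP ligands bring type I and type II receptor kinases together, which phosphorylate SMAD proteins. FGF, PDGF, VEGF and insulin-like ligands act on receptor tyrosine kinases. Wnt proteins bind frizzled receptors and, through dishevelled, keep beta-catenin from being degraded, while Notch is a receptor cut on contact with a ligand on the next cell. In the preimplantation embryo, FGF signaling directs inner cells toward primitive endoderm, where Pdgfra is a common marker, and the catenins hold E-cadherin to the cytoskeleton as the morula compacts.

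Of the 82 spots, 65 were tested, since each array showed them well above background in 1 channel or more, and 57 of these were well above background in all 4 channels. The other 17 included 13 with no channel above it. Many of these genes were dim: 21 of 82 spots averaged over 1000 in processed signal in Cy5 or Cy3. Of all gene spots without an outlier mark, 3527 of 8712 did. The study's methods require that level of a changed gene. By the methods' criteria, that level together with a ratio past 2 or 0.5, both applied here to the mean of the 2 arrays since the methods do not say how arrays were combined, 1 of 82 spots was an up-expression gene (follistatin) against 2.16% of all gene spots. Down-expression genes were 2 of 82 (Pdgfra and a spot named FGF regulated protein) against 2.19%. Required on each array, the criteria left 0 up-expression and 1 down-expression spot among the members, and the share of all spots was not counted under that rule. A ratio above 2 on each array was found for 5 of 65 spots, Acvrl1, Inhbb, Fgf1, Insl6 and Bmp6, which is 7.69% against 2.78% of all 8079 spots tested. The control was not well above background for Acvrl1 on either array and for Fgf1 on array 2, and among spots well above background in all 4 channels the rule was met by 3 of 57 members (5.26%) against 2.32% of all spots. A ratio below 0.5 on each array was found for 2 of 65, Acvr2b and Pdgfra, or 3.08% against 3.03%. The up-expression list printed by the study holds genes whose mean signal here was below 1000, Inhbb and Bmp6 among them. Follistatin is not on it, so the counts by the stated criteria are not counts of that list. The ratios printed there for Inhbb and Bmp6 equal, after rounding, those of array 1 here (3.96 and 2.11), where follistatin had 1.445. With normexp background correction and loess within each array, which compresses the ratio of dim spots, 1 of the 5 spots (Inhbb) stayed above 2 on both arrays, and both lower spots stayed below 0.5.

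No spot passed the test. Limma called 0 of 65 members at a Benjamini-Hochberg adjusted p of 0.05, as it called 0% of all spots, and the smallest adjusted p was 0.058. That result was sensitive to the setting: of 10 other settings 7 called between 2 and 18 members, where they called 1.96% to 18.7% of all spots, and Acvr2b was called in 6 of them, Pdgfra and Inhbb in 5 each. At an unadjusted p of 0.05, 23 of 65 members passed (17 higher and 6 lower after LIF-siRNA), or 35.4% against 30.7% of all spots. More members were higher than lower. The log2 ratio was above 0 on both arrays for 31 of 65 (47.7%, against 36.7% of all spots) and below 0 on both for 17 (26.2%, against 36.8%). Their median log2 ratio, 0.37 and 0.13 on arrays 1 and 2, came to 0.25 for the mean of both, where all spots tested had a median of -0.004. With normexp and loess these medians were 0.095 and 0.005. Across the 65 spots, which share both arrays and their dyes, the 2 arrays correlated with an r of 0.66, and across all spots tested with 0.64.

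**Figure D1:**
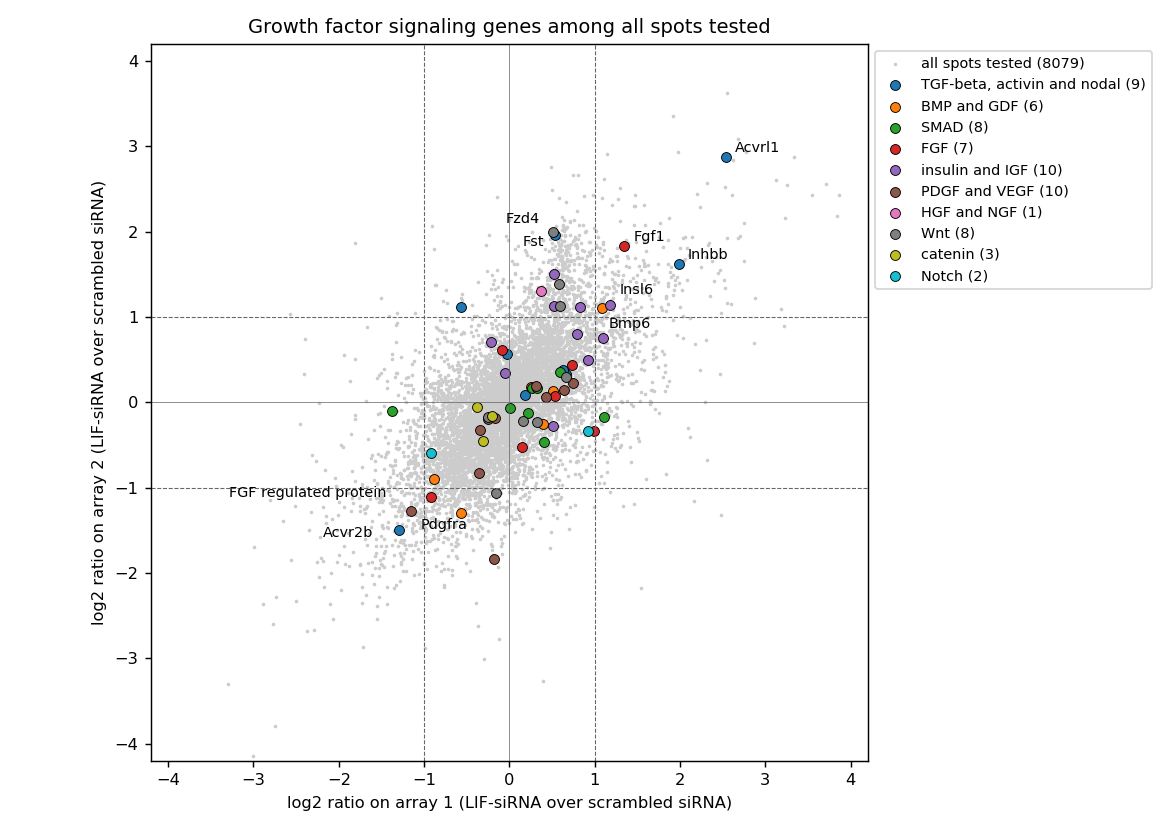
Log2 ratio of LIF-siRNA over scrambled siRNA on array 1 (x axis) and array 2 (y axis) for the 8079 spots tested (grey) and 64 of the 65 member spots tested, colored by family. Dashed lines mark a ratio of 2 and 0.5: 5 members lie in the upper right corner and 2 in the lower left, and follistatin (Fst) and Fzd4 pass the upper line on array 2 only.

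The TGF-beta and activin family, grouped by array name, held the highest and the lowest mean log2 ratio of the members. Inhbb encodes the beta-B subunit that forms activin B and inhibin B. Its signal was 487 after LIF-siRNA against 123 after scrambled siRNA on array 1, and 314 against 102 on array 2. The LIF-siRNA channel was the brighter one on both arrays, at a mean log2 ratio of 1.80 ± 0.26 (SD, n = 2; limma adjusted p = 0.058). Acvrl1, a type I receptor best known from vessels, gave 59.6 against 10.3 and 88.3 against 12.1, where the control channel was not well above background on either array. The deposited log2 ratios of 2.54 and 2.87 (limma adjusted p = 0.058) rest on that channel. Set over the lowest signal well above background in that channel, the LIF-siRNA signal of Acvrl1 was 2.87-fold. That level is no strict limit. Brighter control signals, such as 42.6 for delta-like 1 homolog on array 2, were also not well above background. With normexp and loess the mean log2 ratio of Acvrl1 was 0.64. Its LIF-siRNA signal lay above 97.1% and 97.9% of the blank spots of the same channel, and its control signal above 3.16% and 0%.

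Acvr2b, the type IIB activin receptor, went the other way. It gave 324 against 796 and 336 against 948, with both control signals more than 2 times those after LIF-siRNA, at a mean log2 ratio of -1.40 ± 0.14 (SD, n = 2; limma adjusted p = 0.061). Follistatin (Fst), the secreted protein that binds activin, gave 776 against 538 on array 1 and 1244 against 319 on array 2. The direction was shared but the size was not. The log2 ratios were 0.53 and 1.96 (mean 1.25 ± 1.01, SD, n = 2; limma adjusted p = 0.117), and on array 1 alone it is no up-expression gene.

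**Figure D2:**
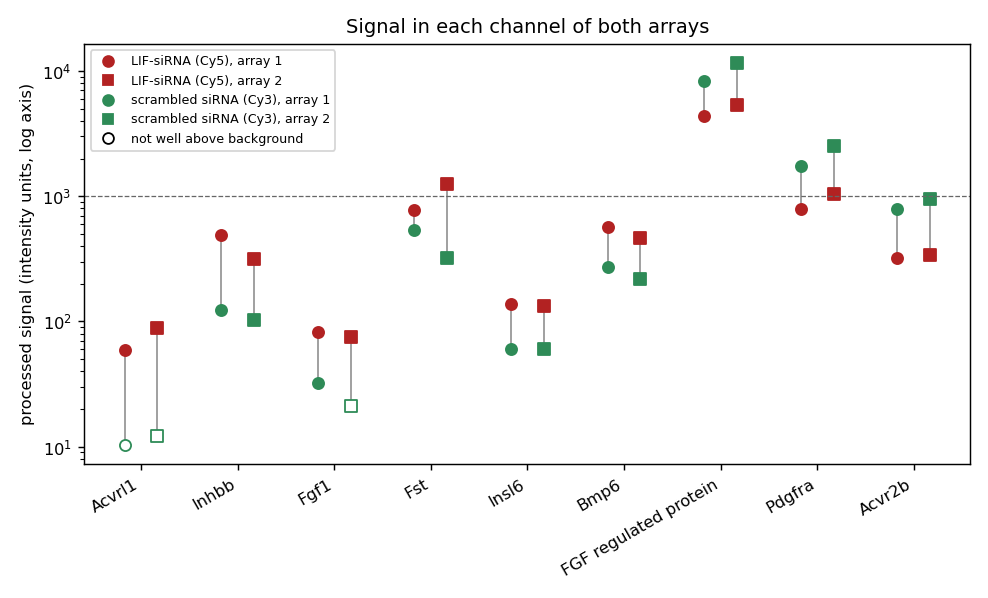
Processed signal (intensity units, log axis) of the 9 member spots past a ratio of 2 or 0.5 on both arrays or past the study's criteria, with LIF-siRNA in red, scrambled siRNA in green, circles for array 1 and squares for array 2. Open symbols were not well above background, and the dashed line marks a signal of 1000, which only follistatin, FGF regulated protein and Pdgfra passed in at least 1 channel.

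The TGF-beta ligands and receptors proper stayed within 2-fold where they could be tested. Tgfb2 had log2 ratios of -0.03 and 0.56. Tgfb3 was not tested, since only the LIF-siRNA channel of array 2 was well above background, at a signal of 33.6 against 14.2 in the control. The study supplied TGF-beta to the embryos, and no spot is named for Tgfb1 among the members. Both receptor chains were higher on both arrays by less than 2-fold: Tgfbr1 had a mean log2 ratio of 0.50 ± 0.18 and Tgfbr2 of 0.14 ± 0.07 (SD, n = 2). Magi2, a scaffold protein listed as an activin receptor interacting protein, had 0.50 ± 0.23. Tgfbi, a matrix protein induced by TGF-beta, differed in sign between the arrays, at -0.57 and 1.12. Inhbc was not well above background in any channel.

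Among the BMP ligands the directions were split. Bmp6 gave 572 against 270 on array 1 and 466 against 217 on array 2, close to the same ratio each time (mean log2 ratio 1.09 ± 0.02, SD, n = 2; limma adjusted p = 0.069). Bmp4 gave 63.2 against 93.4 and 65.6 against 162, so it was lower after LIF-siRNA on both arrays, with a mean log2 ratio of -0.93 ± 0.52 (limma adjusted p = 0.104). Mstn (growth differentiation factor 8, or myostatin), known as a brake on muscle growth, gave 656 against 1211 and 706 against 1319. Its mean log2 ratio was -0.89 ± 0.01, lower on both arrays and short of 2-fold on each (limma adjusted p = 0.085). Bmp5 was higher on both arrays at 0.32 ± 0.27, with its control not well above background on array 2, and Bmp8a differed in sign. The type I receptor Bmpr1a, one of the brighter spots at 1603 to 2391, was within 0.26 of 0 on both arrays. Bmp1, a protease that processes procollagen despite its name, had no channel above background.

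The SMAD spots, the shared mediators of these receptors, stayed within 2-fold on the mean. No SMAD spot passed 2-fold on both arrays, and the mean log2 ratios of the 8 spots lay between -0.73 and 0.47. Smad7, the inhibitory SMAD, was the highest, at 0.59 and 0.35. The 2 spots of Smad5 (means of -0.03 and 0.22) and the 2 spots of Smad4 (means of -0.03 and 0.05) differed by 0.25 and 0.08, and Smad2 had 0.24 ± 0.11. Smad1, a mediator of BMP signals, was at 1.11 on array 1 and -0.17 on array 2. Smad6, the other inhibitory SMAD, was chosen for mention after its values were seen: it had -1.37 on array 1, where its LIF-siRNA signal of 17.2 was not well above background, and -0.10 on array 2.

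Of the other BMP and TGF-beta pathway genes on a list of inhibitors and targets, 8 spots were tested, and 1 was higher and 3 lower on both arrays. None of the 8 passed 2-fold on both arrays. The arrays differed in the sign of the median of these log2 ratios, 0.23 on array 1 against -0.45 on array 2, and the median for the mean of both was -0.30.

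**Figure D3:**
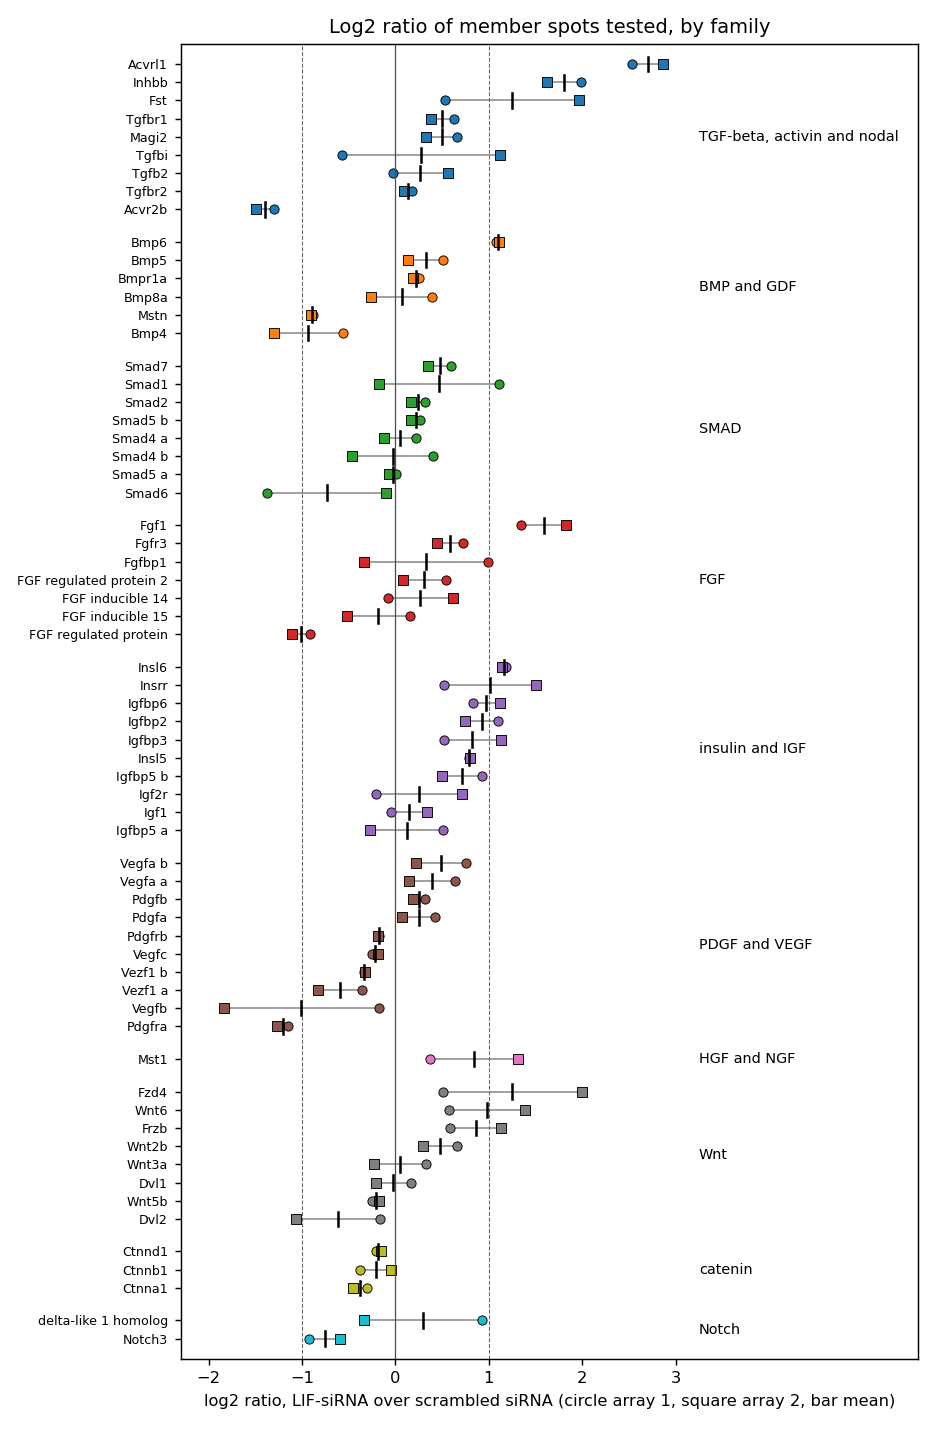
Log2 ratio of LIF-siRNA over scrambled siRNA (x axis) for 64 of the 65 member spots tested, in families from top to bottom, with circles for array 1, squares for array 2 and a bar at the mean; a and b mark 2 spots of the same name, and dashed lines mark a ratio of 2 and 0.5. Of the insulin and IGF spots 7 of 10 lie to the right of 0 on both arrays, while all 3 catenin spots lie just to the left of it.

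The insulin and IGF family leaned toward LIF-siRNA. Of its 10 spots tested, 7 were higher on both arrays and 0 were lower on both, with a median log2 ratio of 0.81, the highest of any family with more than 1 spot tested. Of the 7, Igfbp6, Insl5 and an Igfbp5 spot had a control not well above background on array 2, and among the 7 spots with all 4 channels well above it, 4 were higher on both arrays. That median was 0.29 with normexp background correction and loess, where the TGF-beta and activin family stood higher at 0.49, and 1.02 with background-subtracted signals centred on the median. The relaxin-related ligand Insl6 gave 137 against 60.4 and 133 against 60.6, above 2-fold on both arrays (mean log2 ratio 1.16 ± 0.03, SD, n = 2; limma adjusted p = 0.065). Insl5, its relative, had 0.79 and 0.80, though its control signal was not well above background on array 2.

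The binding proteins hold IGFs outside the cell and prolong or limit their action. Igfbp2 (mean log2 ratio 0.92 ± 0.25), Igfbp3 (0.82 ± 0.43) and Igfbp6 (0.97 ± 0.20) were higher on both arrays, though the control signal of Igfbp6 was not well above background on array 2. The 2 spots of Igfbp5 were not alike. One was at 0.92 and 0.50, with its control not well above background on array 2, and the other, with the lowest mean of the family, was at 0.51 and -0.27. Igfbp1, Igfbp4 and the acid labile subunit Igfals could not be tested.

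Igf2, whose protein the study added to the medium, was not detected: its signals of 10.6 and 9.84 after LIF-siRNA and 9.33 and 13.9 after scrambled siRNA were not well above background. Igf1 was dim, with log2 ratios of -0.05 and 0.34. Igf2r, the receptor that clears IGF-II, was bright (4986 to 8152) and differed in sign, at -0.21 and 0.71. The orphan receptor Insrr was at 0.52 and 1.51, higher on both arrays but past 2-fold on array 2 only.

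Among the FGF spots 3 of 7 were higher and 1 lower on both arrays. Fgf1, the acidic FGF, gave 81.9 against 32.2 on array 1 and 75.3 against 21.2 on array 2, where the control was not well above background. Both ratios passed 2 (log2 ratio 1.35 and 1.83; limma adjusted p = 0.060). Fgfr3, a receptor for FGFs, was higher on both arrays at signals of 1535 to 3051, with a mean log2 ratio of 0.58 ± 0.20. Fgfbp1, a carrier that frees FGFs from the matrix, was at 0.99 and -0.34. The ligands Fgf12 and Fgf15 were not tested.

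The spot named FGF regulated protein, for which the files pair no symbol, was the brightest of the 9 spots past a threshold. It gave 4390 against 8296 and 5358 against 11573, lower after LIF-siRNA on both arrays (mean log2 ratio -1.01 ± 0.14, SD, n = 2; limma adjusted p = 0.077). FGF regulated protein 2 went the other way by less than 2-fold, at 0.54 and 0.08. The spots named FGF inducible 14 and 15 differed in sign between the arrays.

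Pdgfra, a PDGF receptor, was lower after LIF-siRNA. It gave 791 after LIF-siRNA against 1756 after scrambled siRNA on array 1 and 1044 against 2512 on array 2. Both ratios, 0.45 and 0.42, were below 0.5, and the mean log2 ratio was -1.21 ± 0.08 (SD, n = 2; limma adjusted p = 0.063). Pdgfra passed both the study's criteria and the 2-fold rule on each array, which no other member did. Gata6, a primitive endoderm regulator outside the families, was also lower, at 302 against 765 and 368 against 851 (mean log2 ratio -1.28). Among the other morula markers Sox2 and Krt8 were lower still (-2.35 and -1.95), while Zfp42 and Cdh1 were higher on both arrays. The beta receptor Pdgfrb did not share the size: its log2 ratios were -0.17 and -0.18, at signals of 52.2 to 60.4. The ligands Pdgfa (0.25 ± 0.26) and Pdgfb (0.25 ± 0.09) were higher on both arrays by less than 2-fold.

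The VEGF spots split by ligand. Both Vegfa spots were higher on both arrays, with means of 0.39 and 0.49. Vegfc was lower on both, at a mean of -0.22. Vegfb, chosen for mention after its values were seen, was at -0.18 on array 1 and -1.84 on array 2. The 2 spots of Vezf1, a zinc finger protein of vessel lining cells, were lower on both arrays, with means of -0.33 and -0.59. In the hepatocyte growth factor group, the ligand relative Mst1 was at 0.37 and 1.31, and Hgf and its activator Hgfac had no channel above background.

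Of 25 tested spots of other receptor tyrosine kinases (Flt1, Kdr, Met) and of the kinases and adaptors of their pathway, 8 were higher and 11 lower on both arrays, and none passed 2-fold on both. The EGF ligands and receptors, which are no members, had 3 of 4 spots higher on both arrays and 0 lower. Beside both counts, 36.7% of all spots tested were higher on both arrays and 36.8% lower. Egf gave 219 against 46.7 and 244 against 49.8, above 2-fold on both arrays. Tgfa gave 57.5 against 15.8 and 64.7 against 21.1, where the control was not well above background on either array.

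In the Wnt branch the leading spot was a receptor. Fzd4 gave 608 against 428 on array 1 and 1058 against 265 on array 2. Its log2 ratios of 0.51 and 1.99 shared a sign but not a size (mean 1.25 ± 1.05, SD, n = 2; limma adjusted p = 0.121). Its mean signal of 833 after LIF-siRNA stayed under 1000, below the stated signal level. 2 further spots had the same shape, the ligand Wnt6 (0.58 and 1.38) and the secreted inhibitor Frzb (0.59 and 1.13).

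Other Wnt ligands stayed within 2-fold on both arrays or were undetected. Wnt2b was higher on both arrays (0.66 and 0.30) and Wnt5b lower on both (-0.25 and -0.18), while Wnt3a differed in sign. Wnt4, Wnt5a, Wnt11 and the inhibitor Sfrp4 had no channel well above background. Dvl2, a dishevelled protein, had the lowest mean of the branch, at -0.16 and -1.07, and Dvl1 differed in sign.

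The catenins tested were bright spots with small differences. Ctnnb1 (beta-catenin) gave 10783 against 13980 and 13360 against 13818, and Ctnna1 12977 against 16044 and 13104 against 17920. Control signal was higher for each on both arrays, with mean log2 ratios of -0.21 ± 0.23 and -0.38 ± 0.10 (SD, n = 2). Ctnnd1 was at -0.18 ± 0.03. All 3 were lower on both arrays also with normexp and loess and with background-subtracted signals centred on the median, and none passed the test in the main setting (limma adjusted p of 0.286 to 0.583). Ctnna2 and Ctnnd2, known from neurons, had no channel above background. Of the other Wnt pathway genes, 19 spots were tested, with 5 higher and 6 lower on both arrays. Only Tle3, a corepressor that binds TCF factors, passed 2-fold on both, at 70.7 against 201 and 59.1 against 220.

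Notch was represented by few spots. Notch3 gave 34.3 against 65.0 and 49.7 against 75.1, lower on both arrays at a mean log2 ratio of -0.76 ± 0.23 (SD, n = 2; limma adjusted p = 0.106). The spot named delta-like 1 homolog, a name that fits more than 1 gene, was at 0.92 and -0.34. Its control signal was not well above background on either array, and the arrays differ in sign, so no direction can be given. Of 11 other Notch pathway spots, 5 were higher and 2 lower on both arrays, and all 3 spots of a hedgehog pathway list were higher on both. None of these 14 passed 2-fold on both arrays, and 36.7% of all spots tested were higher on both and 36.8% lower.

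Grouped by role across families, the secreted modulators stood highest. Of 8 modulators tested, 6 (75%) were higher on both arrays and 0 lower, against 36.7% and 36.8% of all spots tested. The modulators had a median log2 ratio of 0.84 (0.36 with normexp and loess). The 6 are follistatin, Frzb, Igfbp2, Igfbp3, Igfbp6 and 1 of 2 Igfbp5 spots, and the last pair had a control not well above background on array 2. The Igfbp spots are also counted in the insulin and IGF family. With all 4 channels above it, 4 of 6 modulators were higher on both arrays. Ligands had a median of 0.29 over 23 spots, with 13 higher and 5 lower, but the median depended on the setting: it was 0.43 on array 1 and 0.19 on array 2, 0.12 with normexp and loess, and 0.60 with background-subtracted signals centred on the median. Receptors had 0.22 over 13 spots, with 7 higher and 4 lower, and the lowest spot of all members, Acvr2b, is among them. Intracellular mediators had a median of -0.03 over 14 spots, with 4 higher and 5 lower, and none of them passed 2-fold on both arrays. The differences between roles were not tested.

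**Figure D4:**
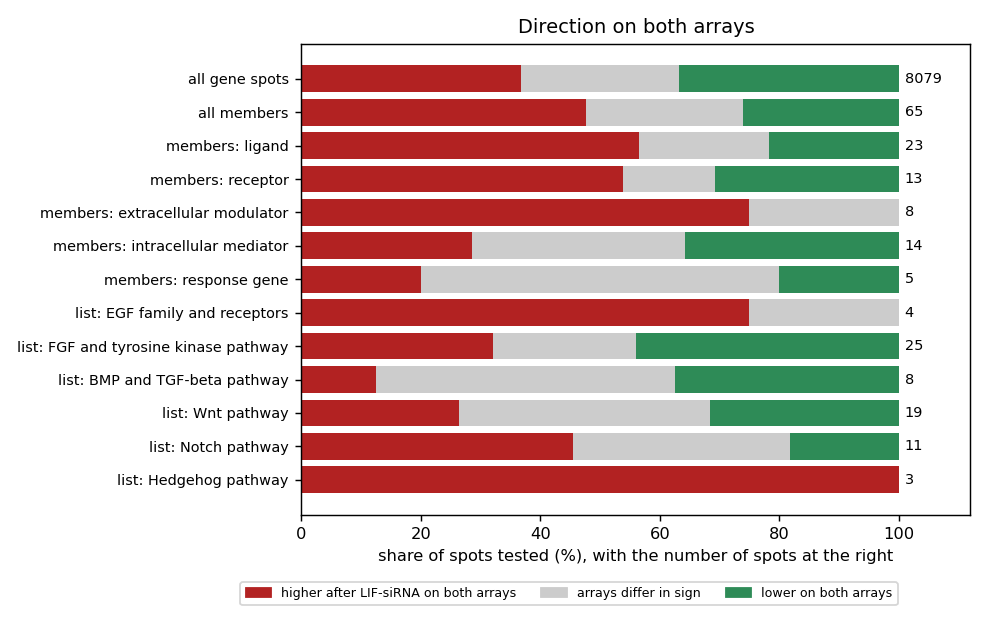
Share of tested spots (x axis, percent) that were higher after LIF-siRNA on both arrays (red), lower on both (green) or of different sign (grey), for all gene spots, all members, the members by role and the lists of other pathway genes. Numbers at the right count the spots: the 8 extracellular modulators have none that was lower on both arrays, and the 25 spots of the FGF and tyrosine kinase list have 11.

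Promoter sequence was read for the 4 members past 2-fold on both arrays that the RefSeq promoter table (GRCm38.p6) holds, to set those that were higher beside those that were lower. Each line gives the 250 bases before the start, 5′ to 3′ on the strand of the gene. Capitals would mark a STAT-type site (TTCNNNGAA) or a TCF/LEF-type site (CTTTGAT) on either strand, and these 4 windows hold none.
Inhbb, higher, chr1:119422249-119422498, minus strand: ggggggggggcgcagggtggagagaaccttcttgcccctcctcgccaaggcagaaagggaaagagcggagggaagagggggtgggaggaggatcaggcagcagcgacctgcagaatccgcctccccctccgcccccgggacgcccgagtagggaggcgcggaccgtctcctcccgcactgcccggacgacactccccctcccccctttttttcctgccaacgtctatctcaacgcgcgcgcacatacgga
Bmp6, higher, chr13:38345466-38345715, plus strand: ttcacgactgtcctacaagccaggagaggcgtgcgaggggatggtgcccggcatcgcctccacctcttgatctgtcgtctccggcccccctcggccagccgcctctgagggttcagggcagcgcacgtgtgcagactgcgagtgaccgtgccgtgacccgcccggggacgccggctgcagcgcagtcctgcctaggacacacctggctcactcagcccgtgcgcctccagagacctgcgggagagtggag
Acvr2b, lower, chr9:119401928-119402177, plus strand: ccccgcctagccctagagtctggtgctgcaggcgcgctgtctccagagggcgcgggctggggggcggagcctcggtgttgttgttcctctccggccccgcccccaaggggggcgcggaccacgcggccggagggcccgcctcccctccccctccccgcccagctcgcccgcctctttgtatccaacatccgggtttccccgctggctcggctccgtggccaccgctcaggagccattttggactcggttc
Pdgfra, lower, chr5:75152001-75152250, plus strand: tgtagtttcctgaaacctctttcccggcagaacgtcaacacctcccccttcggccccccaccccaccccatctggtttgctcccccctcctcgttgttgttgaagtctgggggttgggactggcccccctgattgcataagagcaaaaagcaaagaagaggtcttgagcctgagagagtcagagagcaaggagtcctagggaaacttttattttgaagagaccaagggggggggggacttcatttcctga

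The windows differ in base composition more by gene than by direction. G and C make up 68% in Inhbb, 68.8% in Bmp6 and 72.8% in Acvr2b, with 21, 22 and 24 CpG pairs, and 54.4% with 4 CpG pairs in Pdgfra. The median was 63.6% over 78 member promoters and 52.4% over all 32851. Of the 72 member genes with a symbol, 55 matched the table. A STAT-type site was present in 6 of these 78 windows (7.69%), those of Fgf12, Frzb, Hgfac, Igfals and Wnt5b, against 7.02% of all windows. A TCF/LEF-type site was present in 2 (2.56%), those of Wnt5b and Wnt11, against 3.21%. Of these genes only Frzb and Wnt5b could be tested, with mean log2 ratios of 0.86 and -0.21, and the presence of these letters does not show that a factor binds there.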

How the data were processed

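The authors hybridized the labeled cDNA to Agilent arrays and scanned both dyes. The deposited intensity columns hold the mean, background and processed signal of each spot, processed by Agilent Feature Extraction with background subtraction and dye normalization. The deposited log10 ratio is Cy5 over Cy3 after rank-consistent lowess, and was converted to log2. Dyes were not swapped. No reads exist, and the precision is limited by 2 arrays (median signal over local background 4.83 to 6.60). The deposited value table of the series holds the mean brightness of both channels and was not used.

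The 664 blank spots, other controls and 23 outlier gene spots were left out. The ratio was tested against 0 with limma 3.58.1 in R 4.3.3 (lmFit and eBayes, intercept only, two-sided, Benjamini-Hochberg over 8079 spots that each array showed well above background in 1 channel or more, threshold 0.05), after the test had been tested on simulated data. Processed signals gave the levels. Where a channel of a spot was not well above background on either array, the lowest signal well above background stood for it, or its own if higher. The bright group's mean after Aquantile over that level is no strict bound, since a brighter spot can also be marked as not well above background. Counts used Python 3.11.15 with pandas 2.3.3.

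Genes were matched by full name. Of 77 names, 72 were given a symbol by hand, 5 have 2 spots, 1 is counted but not reported here, and 0 of 82 spots carried a saturated or outlier mark. The members and the gene lists were chosen with earlier results of these data known. Named genes are those past 2-fold on both arrays or the study's criteria, the highest and lowest of each family, Pdgfra and the IGF-II and TGF-beta spots, and members whose arrays differ in sign by more than 1 in log2; the other members are given as a description. Alternatives were other background corrections, centring, filters, variance models and thresholds, and each array left out. The growth factor supplementation, RT-PCR and blastocyst counts are not analysed here.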

Additional observations from a re-analysis of the deposited data

How the results depend on the processing

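The limma count of members went from 0 to 2 with normexp (offset 50) and loess, 18 with background-subtracted signals centred on the median, 5 with the deposited ratio centred on the median, 2 with both channels well above background, 9 with an intensity trend, 3 among spots past the signal threshold, and 6 with the channels as separate samples and no replicate block. The main test, on the ratio within an array, is itself the paired one. The share of all spots called in these settings was 1.96%, 16.4%, 4.27%, 3.09%, 14%, 18.7% and 6.36%. The count of members called stayed 0 without a filter, with outliers kept and by a t-test of each spot. At an unadjusted p of 0.05 that t-test passed 9 of 65 members and 865 of 8079 spots. The study's methods name a Student t-test for quantified gene expression, and the array methods state no test. No test is left without 1 array.

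Member spots past 2-fold up on both arrays numbered 1 with normexp and 3 with both channels well above background (5.26% against 2.32% of all spots). On a single array 7 to 14 members were past 2-fold up and 3 to 6 past 2-fold down. By the study's criteria, down-expression members numbered 1 with normexp, up- and down-expression members 8 and 4 with no signal threshold and also with the background rule in its place, and 0 and 1 when required on each array. On a single array they numbered 0 to 2 and 1 to 2. For the normexp, single-array and changed-criteria counts the share of all spots was not counted, so these counts describe the members only. The median stayed between 0.095 and 0.372. The sign turned for delta-like 1 homolog (-0.09 with normexp). Of the 65 members tested, 17 differed in sign between the arrays. On a single array, among the named members reported here, signs turned for Smad1 (-0.174 to 1.108), Fgfbp1 (-0.336 to 0.992), a Smad5 spot (-0.066 to 0.006), Tgfbi (-0.569 to 1.121), delta-like 1 homolog (-0.341 to 0.922), Tgfb2 (-0.026 to 0.562) and an Igfbp5 spot (-0.271 to 0.51). The cause was not tested.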

Other observations

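The plot of both arrays shows a ridge of spots with a log2 ratio between 0.4 and 0.8 on array 1 and above 1.2 on array 2, bounds that were set after the plot had been seen. It holds 228 of 8079 spots (2.82%), with medians of 0.61 on array 1 and 1.56 on array 2. The mirrored region, with the arrays exchanged, holds 52 (0.644%). Of the members, 4 of 65 lie in the ridge (6.15%): follistatin, Fzd4, Insrr and Wnt6. Values of these 4 genes on array 2 therefore lie where many unrelated spots lie, and whether they share a technical source was not tested.

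Among members past 2-fold on both arrays, the smallest spreads were those of Bmp6 (SD 0.018 between arrays) and Insl6 (SD 0.031). The median SD was 0.26 over the members tested. With normexp and loess the mean log2 ratios of Bmp6 and Insl6 were 0.86 and 0.55, short of 2-fold.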
